A study of Homo sapiens with 6 samples.

Results

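The genes of MHC class I antigen presentation were followed in L3.6pl cells, an established human line of metastatic pancreatic ductal adenocarcinoma, after sorting on the surface adhesion molecule L1CAM. The 9 members were chosen by symbol from the 19469 genes of the count table, by a rule that uses no measured value but was written with earlier results of these data known: the class I heavy chains HLA-B, HLA-C, HLA-E and HLA-F, the shared light chain B2M, the peptide transporter subunits TAP1 and TAP2, the loading factor TAPBP and the transactivator NLRC5. All 9 had a row, and all 9 passed the filter on low counts. L1low cells (the population labelled L1CAM negative) were compared with L1high cells (labelled L1CAM positive), with 3 RNA-seq libraries of each. Both populations came from the same line, were grown in DMEM with serum and antibiotics and received no treatment, so the sort was the only stated difference between them. The name of the line is spelled L6.6pl once in the labels, but L3.6pl in the titles of the samples and in the study's methods. Both the labels and these methods give its carcinoma type as adenosquamous, and the methods also call it a line of pancreatic ductal adenocarcinoma. A single line in culture contains no T cells, NK cells or stroma, and the labels do not say whether the 3 libraries of a population came from separate cultures, although the study's statistics section describes its experiments in general as independent repeats. The p-values therefore measure the spread between these libraries, which may be technical.

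Class I molecules sit on nearly all nucleated cells and display short peptides from inside the cell to CD8+ T cells. The proteasome cuts cytosolic proteins, the TAP1-TAP2 transporter pumps the fragments into the endoplasmic reticulum, tapasin (the product of TAPBP) holds an empty heavy chain beside the transporter, and only the trimer of heavy chain, B2M and peptide travels stably to the surface. In the cytokine response the pathway is induced as a unit by interferon gamma, in part through IRF1, and NLRC5 joins RFX, CREB/ATF and NF-Y proteins on the promoters of class I genes. Loss of B2M, of a transporter subunit or of NLRC5 is a known route by which tumour cells lower surface class I.

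The promoters of 7 of the 9 members were found in RefSeq (GRCh38.p14), and HLA-E and NLRC5 had no entry. The promoters shown are those of the gene that differed, of the other members of the loading machinery whose libraries separated, and of the classical heavy chains. This choice rests in part on the measured values. They were searched for elements through which these genes are known to be switched on together, and no element was found in every promoter shown. Each is given as the 200 bases before the annotated start, 5′ to 3′ on the strand of the gene. The start is that of RefSeq, which for some genes lies inside the GENCODE gene span given with the values, so that a window can fall within that span. The capitals mark matches on either strand to an interferon-stimulated response element (ISRE, GAAANNGAAA), a CCAAT box (CCAAT, the NF-Y element), a CRE half-site (TGACG, the CREB/ATF element) and a kappaB element.
B2M, chr15:44711317-44711516, plus strand: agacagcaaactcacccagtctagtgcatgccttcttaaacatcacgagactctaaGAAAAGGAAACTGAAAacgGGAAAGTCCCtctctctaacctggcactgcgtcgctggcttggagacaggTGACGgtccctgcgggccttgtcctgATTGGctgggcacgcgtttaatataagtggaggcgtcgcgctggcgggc
HLA-B, chr6:31357180-31357379, minus strand: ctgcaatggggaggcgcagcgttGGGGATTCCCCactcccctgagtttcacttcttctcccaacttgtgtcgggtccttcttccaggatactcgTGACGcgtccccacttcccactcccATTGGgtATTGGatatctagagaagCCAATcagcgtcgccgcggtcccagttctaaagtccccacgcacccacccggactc
HLA-C, chr6:31272093-31272292, minus strand: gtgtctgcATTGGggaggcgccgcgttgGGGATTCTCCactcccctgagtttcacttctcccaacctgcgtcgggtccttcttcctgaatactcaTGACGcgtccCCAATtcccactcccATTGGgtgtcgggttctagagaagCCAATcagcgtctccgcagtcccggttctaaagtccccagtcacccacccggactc
TAP2, chr6:32838740-32838939, minus strand: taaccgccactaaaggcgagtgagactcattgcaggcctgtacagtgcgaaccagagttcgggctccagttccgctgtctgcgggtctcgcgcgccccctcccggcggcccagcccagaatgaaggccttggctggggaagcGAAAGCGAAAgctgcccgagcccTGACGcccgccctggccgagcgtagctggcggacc
TAPBP, chr6:33314079-33314278, minus strand: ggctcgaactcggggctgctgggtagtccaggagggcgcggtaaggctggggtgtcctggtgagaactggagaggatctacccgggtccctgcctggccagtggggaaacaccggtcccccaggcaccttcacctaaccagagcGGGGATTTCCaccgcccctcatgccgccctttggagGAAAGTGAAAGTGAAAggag

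The B2M promoter held 2 overlapping ISRE matches, 1 kappaB match, 1 CRE half-site and 1 CCAAT box. TAPBP also held 2 overlapping ISRE matches, with 1 kappaB match and neither a CRE half-site nor a CCAAT box. TAP2 held 1 ISRE match and 1 CRE half-site. HLA-B and HLA-C had no ISRE match of this spelling, and each had 1 CRE half-site, with 3 CCAAT boxes in HLA-B and 4 in HLA-C. HLA-B held 2 overlapping kappaB matches and HLA-C held 1. HLA-F, whose promoter is not printed, held 1 ISRE match and 2 CCAAT boxes, and the upstream entry of TAP1 held 2 ISRE matches and 1 kappaB match. Among 35116 RefSeq promoters of the same length, 2.40% held the ISRE, 28.0% a CCAAT box, 18.4% a CRE half-site and 8.14% a kappaB element. A match describes these letters and is not a measured binding site, and a missing match says only that the letters are not in this window.

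The libraries held between 16334610 and 21064685 counts, so that 1 count was worth between 0.0471 and 0.0609 CPM, the unit in which each library is set relative to its TMM-adjusted total. The sort was visible in the RNA of L1CAM, which had 81.1 ± 10.2 CPM in L1high and 20.5 ± 3.01 CPM in L1low cells (SD, n = 3), a log2 fold change of -1.99 (SE 0.12, adjusted p = 4.69e-06 by the edgeR quasi-likelihood test, with p-values adjusted by Benjamini-Hochberg). The test covered 19467 genes and called 1548 at an adjusted p under 0.05. L1low cells had more of 891 and less of 657 of them, and without L1high replicate 1 or L1low replicate 2 the number called was 674 and 627. All 6 epithelial markers had a row, and their summed level ran from 4233 to 4785 CPM in L1high and from 4779 to 5130 CPM in L1low cells. Of the leukocyte markers 1 of 8 had a row (ITGAX), of the fibroblast markers 2 of 7 (COL3A1 and LUM) and of the endothelial markers 1 of 5 (PECAM1), whereas PTPRC, CD3E, COL1A2, PDGFRB, VWF and CDH5 had none. In bulk RNA, fewer cells expressing a gene and less RNA of that gene per cell cannot be told apart.

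B2M was the 1 member of 9 called between the populations, and it was lower in L1low cells. Of all genes tested, 7.95% were called in either direction and 3.37% were called lower, so 1 of 9 is close to the background. HLA-E and TAPBP were measured higher and TAP2 lower in L1low cells without passing the test, and HLA-B, HLA-C, HLA-F, TAP1 and NLRC5 had overlapping libraries. For 4 of the 9 members the 3 libraries of one population did not overlap the 3 of the other, against 28.8% of all genes tested. Of the 9 log2 fold changes 3 were above and 6 below 0, with a median of -0.04 (0.10 without L1high replicate 3), and over all genes the median was -0.01 with 51.5% below 0.

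**Figure D1:**
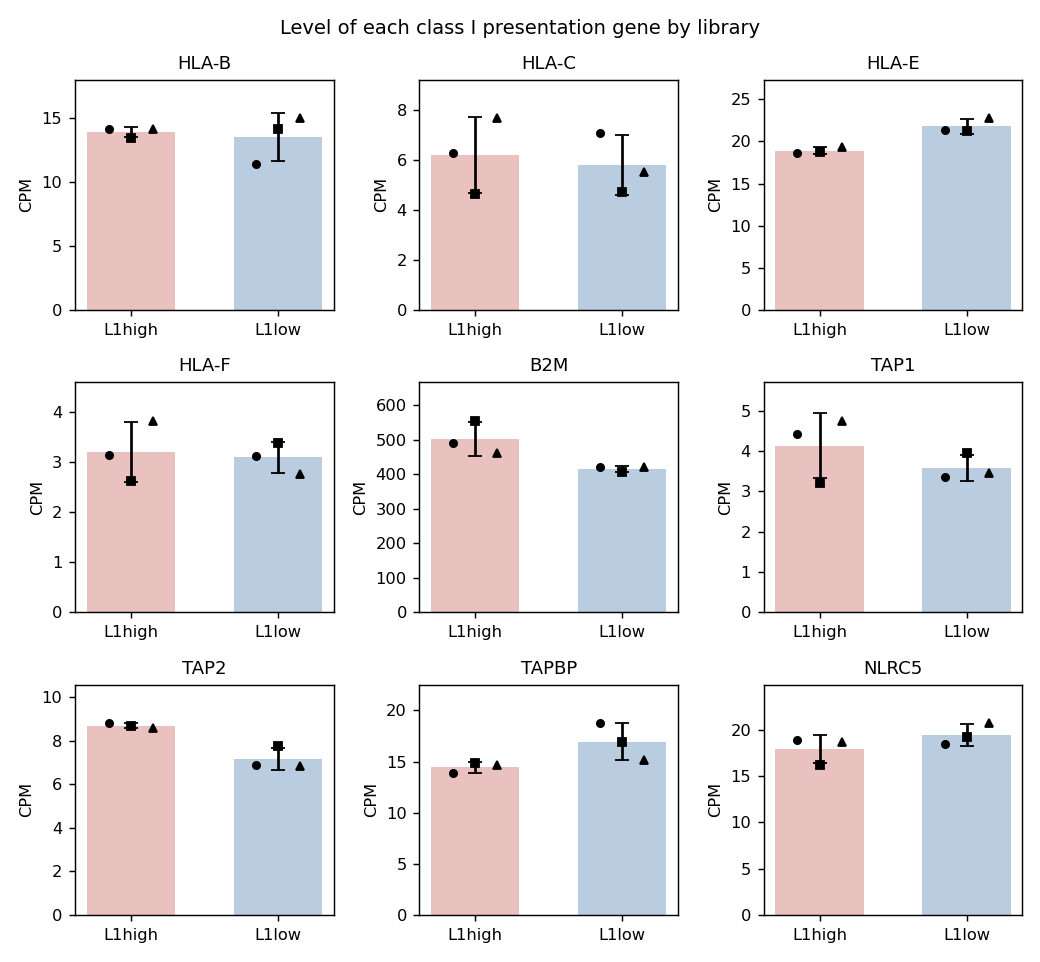
Level of each of the 9 genes in CPM (vertical axis, starting at 0 and scaled per gene) in L1high and L1low cells; bars are means, whiskers SD of 3 libraries, and the circle, square and triangle are replicates 1, 2 and 3. B2M lies between 461.4 and 556.0 CPM in L1high and between 407.1 and 422.4 CPM in L1low cells, and only HLA-E, TAP2 and TAPBP also separate the 6 libraries.

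B2M encodes the invariant light chain that every class I heavy chain needs to fold and reach the surface. Its gene lies at chr15:44711358-44718851 (plus strand, GRCh38), outside the MHC. B2M had 491.0, 556.0 and 461.4 CPM in L1high replicates 1 to 3 and 422.4, 407.1 and 421.3 CPM in L1low replicates 1 to 3. Each L1low library was below each L1high library, and the L1high libraries were spread more widely, at 502.8 ± 48.4 CPM against 416.9 ± 8.53 CPM (SD, n = 3). The log2 fold change was -0.27 (SE 0.07, 95% interval -0.43 to -0.11), a change of -17.1% (-25.8% to -7.35%), with an adjusted p of 0.0443 by the edgeR quasi-likelihood test with Benjamini-Hochberg adjustment. These values rest on 7306 to 11420 counts per library, and no stretch of 50 bases in the transcripts of B2M occurred in those of another gene.

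The call for B2M lay near the threshold, and which libraries entered the fit decided it. With L1high replicate 3 left out, the log2 fold change was -0.32 and the adjusted p 0.0226 by the edgeR quasi-likelihood test. Leaving out any other library kept the sign and lost the call. The adjusted p was 0.133 without L1high replicate 1 and 0.0875 without L1high replicate 2, where the log2 fold change was -0.19. It was 0.0864, 0.195 and 0.0829 without L1low replicate 1, 2 and 3, again by the edgeR quasi-likelihood test. With all 6 libraries B2M stayed called under each other scaling, filter and test tried, as the plot of B2M by setting shows.

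**Figure D2:**
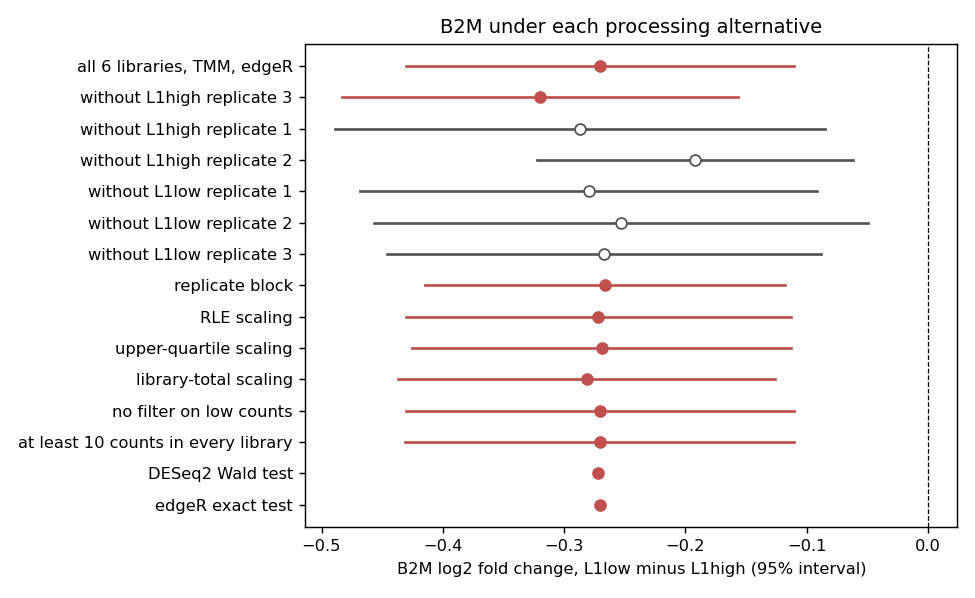
Log2 fold change of B2M, L1low minus L1high (horizontal axis), under each setting (vertical axis); lines are 95% intervals, which DESeq2 and the exact test do not have here, and filled red points passed an adjusted p of 0.05. The estimates run from -0.32 without L1high replicate 3 to -0.19 without L1high replicate 2, and the 5 open points are those that leave out 1 of the other 5 libraries.

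The heavy chains carry the peptide groove. HLA-B and HLA-C are classical, polymorphic chains that present to CD8+ T cells, and HLA-C is also a main ligand of killer-cell immunoglobulin-like receptors of NK cells. HLA-B (chr6:31353872-31367067, minus strand) had 14.14, 13.49 and 14.13 CPM in the L1high libraries and 11.45, 14.15 and 15.02 CPM in the L1low libraries. The L1low values lay on both sides of the L1high values, and the log2 fold change was -0.04 (SE 0.12, 95% interval -0.30 to 0.22, edgeR adjusted p = 0.880). HLA-C (chr6:31268749-31272130, minus strand) had 6.27, 4.63 and 7.68 CPM in L1high and 7.10, 4.74 and 5.53 CPM in L1low libraries. Replicate 2 was the lowest of each population, the groups overlapped, and the log2 fold change was -0.09 (SE 0.20, 95% interval -0.53 to 0.36, edgeR adjusted p = 0.845).

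Of the nonclassical chains, HLA-E presents the leader peptides of other class I chains to the NKG2A and NKG2C receptors of NK cells. HLA-E (chr6:30489509-30494194, plus strand) had 18.62, 18.69 and 19.37 CPM in the L1high libraries and 21.30, 21.28 and 22.76 CPM in the L1low libraries. Every L1low library was above every L1high library, by 15.3% in the fit (0.485% to 32.3%), a log2 fold change of 0.21 (SE 0.09), which missed the threshold over all genes (edgeR adjusted p = 0.199). HLA-F, which can reach the surface without peptide and has the lowest level of the 4 chains per kilobase, lies at chr6:29722775-29738528 (plus strand). It had 3.16, 2.63 and 3.84 CPM in L1high and 3.14, 3.40 and 2.77 CPM in L1low libraries. The groups overlapped, and with 49 to 67 counts per library the log2 fold change of -0.04 had a 95% interval from -0.47 to 0.39. HLA-F overlaps an unnamed pseudogene on the opposite strand (ENSG00000225864) over 674 exon bases. That pseudogene had a mean of 23.3 counts, and the strand setting of the counting is not given in the sources used here.

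Class I genes are close in sequence, and reads can be placed on the wrong member. Of all stretches of 50 bases in its transcripts, HLA-B shared 30.5% with another gene, against 5.46% for HLA-C, 5.19% for HLA-E and 0.982% for HLA-F. Another gene here means any annotated gene, also one at the same place. HLA-B overlaps the pseudogene DHFRP2 on the same strand over 1421 exon bases, and DHFRP2 had no row in the count table used here. The 30.5% can therefore come in part from this overlap and not from likeness to other class I genes, and the 2 were not separated. The alignment was to 1 reference genome, while HLA-B and HLA-C are polymorphic, so reads of alleles unlike the reference may be missing from every library, which was not measured. When the 6 heavy chain rows used here (HLA-B, HLA-C, HLA-E, HLA-F and the pseudogenes HLA-H and HLA-V) were summed before the fit, the log2 fold change was 0.06 (SE 0.07, 95% interval -0.10 to 0.21, edgeR adjusted p = 0.683). Across the settings this sum stayed between 0.03 and 0.08 and was not called.

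HLA-E and B2M lay on opposite sides of 0, and their ratio within a library is free of the scaling between libraries. There were 3.79, 3.36 and 4.20 HLA-E reads for every 100 B2M reads in the L1high libraries and 5.04, 5.23 and 5.40 in the L1low libraries. The 2 ranges did not overlap. For HLA-B the corresponding values were 2.88, 2.43 and 3.06 in L1high and 2.71, 3.48 and 3.57 in L1low libraries, which overlapped. These ratios were chosen after the values were seen, carry no test and show unequal change, not which of the genes changed.

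None of the 3 loading genes passed the test. TAP1 and TAP2 form the pump that moves peptides into the endoplasmic reticulum. TAP1 (chr6:32845209-32853816, minus strand) had 4.43, 3.21 and 4.75 CPM in L1high and 3.36, 3.96 and 3.45 CPM in L1low libraries. L1high replicate 2 was the lowest of all 6, the groups overlapped, and the log2 fold change was -0.20 (SE 0.19, 95% interval -0.61 to 0.22, edgeR adjusted p = 0.577). TAP2 (chr6:32821833-32838739, minus strand) had 8.82, 8.67 and 8.59 CPM in L1high and 6.88, 7.75 and 6.83 CPM in L1low libraries. Each L1low library was below each L1high library, at a log2 fold change of -0.28 (SE 0.12, 95% interval -0.55 to -0.01) that did not pass over all genes (edgeR adjusted p = 0.192). The size is close to that of B2M, and TAP2 rested on 121 to 187 counts per library.

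TAPBP encodes tapasin, which holds heavy chains to the transporter and favours the exchange of weakly bound peptides. TAPBP (chr6:33299694-33314284, minus strand) had 13.86, 14.85 and 14.62 CPM in L1high and 18.77, 16.94 and 15.13 CPM in L1low libraries. All L1low values were above all L1high values, although L1low replicate 3 exceeded L1high replicate 2 by little, and the log2 fold change was 0.23 (SE 0.11, 95% interval -0.01 to 0.47, edgeR adjusted p = 0.233). There were 157, 171 and 170 TAPBP reads per 100 TAP2 reads in the L1high libraries and 273, 219 and 222 in the L1low libraries, a ratio that was likewise chosen after the values were seen. TAP2 shared 18.5% of its 50-base stretches with other genes and overlaps an unnamed protein-coding gene on the same strand (ENSG00000250264, chr6:32813767-32838822) over 2023 exon bases. That gene had a mean of 85.8 counts and a log2 fold change of -0.17 (edgeR adjusted p = 0.568), and reads common to both cannot be assigned from these counts. TAP1 overlaps PSMB8-AS1 on the opposite strand, which had a mean of 30.0 counts, and the strand setting of the counting is not given in the sources used here.

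NLRC5 is the transactivator that drives class I heavy chain, B2M and TAP1 transcription. NLRC5 (chr16:56989485-57083531, plus strand) had 18.90, 16.16 and 18.64 CPM in L1high and 18.44, 19.17 and 20.73 CPM in L1low libraries. The groups overlapped, with a log2 fold change of 0.12 (SE 0.10, 95% interval -0.11 to 0.35, edgeR adjusted p = 0.536). CIITA, its class II counterpart, had 15.8 ± 1.61 CPM in L1high and 15.6 ± 1.44 CPM in L1low cells (log2 fold change -0.01, edgeR adjusted p = 0.962), and none of 10 genes of the class II pathway had a row in the count table used here.

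**Figure D3:**
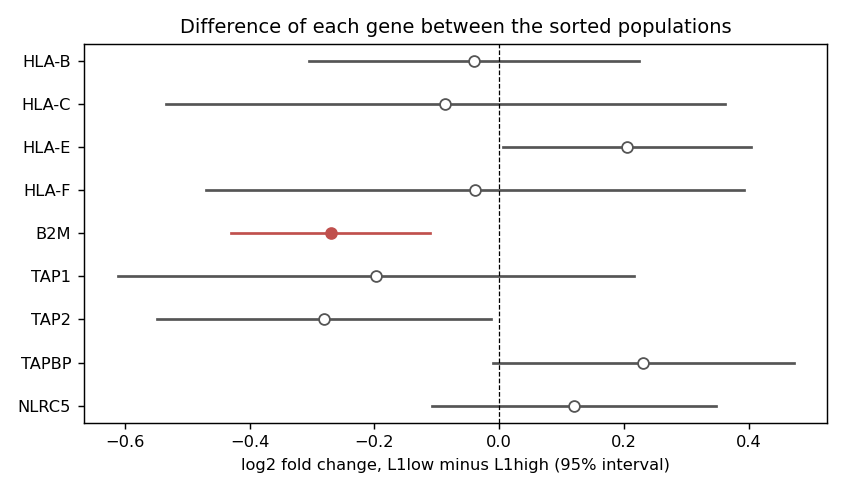
Log2 fold change, L1low minus L1high (horizontal axis), of the 9 genes (vertical axis) with 95% intervals from the edgeR quasi-likelihood fit; the filled red point passed an adjusted p of 0.05. Only the intervals of B2M, TAP2 and HLA-E exclude 0, B2M and TAP2 below it and HLA-E above it.

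The genes also differed widely in level. Per kilobase of exon (RPKM, the mean of all 6 libraries), B2M stood at 147.3 and was 21.2 times the next member, HLA-E at 6.96. HLA-B followed at 2.97, HLA-C at 2.39, TAPBP at 2.36 and NLRC5 at 1.51, and TAP1, TAP2 and HLA-F lay at 0.815, 0.765 and 0.731 RPKM. Ranges over the libraries overlapped among HLA-B, HLA-C and TAPBP and among TAP1, TAP2 and HLA-F. The order within each of these groups is therefore not set beyond the spread. The order of the other genes and the distance of B2M also depend on the exon length used and on how shared reads were placed, which were not varied. B2M was at the 97.7th percentile of genes in RPKM, HLA-E at the 58.6th and HLA-B at the 36.6th, while TAP1, TAP2 and HLA-F were at percentiles 13.1, 12.4 and 11.8. The 95% interval of TAP1 covers changes from -34.6% to 16.2%.

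**Figure D4:**
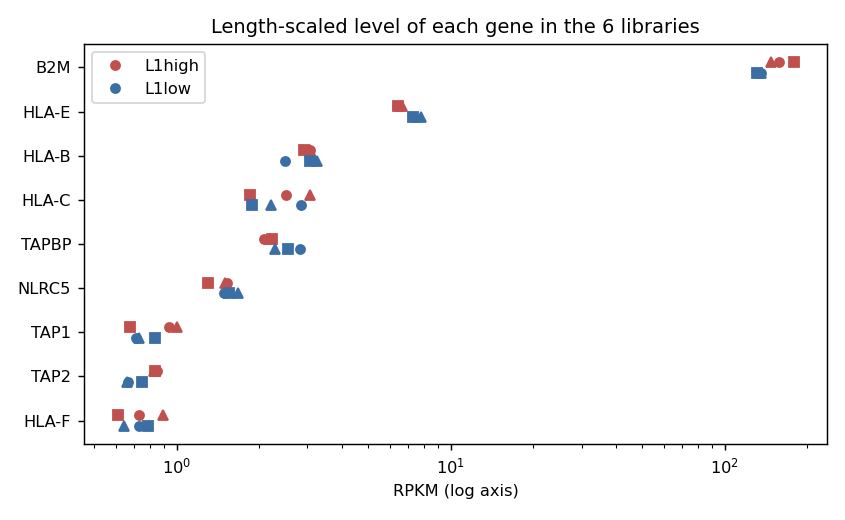
RPKM (log axis) of the 9 genes, ordered by their mean over 6 libraries; red marks L1high and blue L1low libraries, with circle, square and triangle for replicates 1, 2 and 3. B2M lies apart at 130.4 to 178.1 RPKM, HLA-E follows at 6.37 to 7.79, and TAP1, TAP2 and HLA-F overlap near the bottom.

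The 7 members on chromosome 6 span chr6:29722775-33314284 of the MHC. Of 101 other genes tested in this interval, 2 (1.98%) were called, RNF39 and RGL2, both higher in L1low cells, against 7.95% of all genes. Of the 101 log2 fold changes 46 lay below 0, against 51.5% of all genes, and the median of the 101 was 0.02. RNF39 and RGL2 were named after their values were seen.

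Upstream of the transporter, 4 genes of the constitutive 20S proteasome fell in L1low cells, and no measured subunit of its interferon-induced variant was called. All 14 genes of the constitutive core particle had negative log2 fold changes, against 51.5% of all genes tested. The median of the 14 was -0.16, and 10 separated the libraries, against 28.8% of all genes tested. Of these 14, 4 passed the test, all of them alpha-ring subunits, against 3.37% of all genes called lower. PSMA4 fell from 441.8 ± 33.1 to 342.4 ± 16.1 CPM (SD, n = 3; log2 fold change -0.37, edgeR adjusted p = 0.00822). PSMA1 fell by 0.30, PSMA3 by 0.28 and PSMA5 by 0.30 on the log2 scale, with edgeR adjusted p-values of 0.0368, 0.0432 and 0.0271. Summed over the core, the level ran from 3468 to 3599 CPM in L1high and from 3037 to 3257 CPM in L1low cells. The number called was 1, 2 and 3 without L1high replicate 1, 2 and 3, and 1, 0 and 2 without L1low replicate 1, 2 and 3, and at least 13 of 14 stayed below 0 in each.

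The immunoproteasome swaps in catalytic subunits that favour peptides fit for class I. PSMB8 had 4.80 ± 0.283 CPM in L1high and 4.46 ± 0.538 CPM in L1low cells (log2 fold change -0.11, edgeR adjusted p = 0.732). PSMB10 had 21.6 ± 1.34 and 21.6 ± 1.64 CPM (edgeR adjusted p = 0.999), and PSMB9, which lies head to head with TAP1, had no row in the count table used here. The 4 measured genes, with the activator subunits PSME1 and PSME2, ranged from -0.11 to 0.02 on the log2 fold change scale. None of the 4 was called, which says little in so short a list with 7.95% of all genes called.

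Inside the endoplasmic reticulum, none of the 9 loading chaperones was called, against 7.95% of all genes tested. Their median log2 fold change was 0.03. CALR (calreticulin) had 648.5 ± 19.3 CPM in L1high and 622.0 ± 22.3 CPM in L1low cells (edgeR adjusted p = 0.587), and PDIA3, the disulfide isomerase bound to tapasin, had 265.0 ± 12.7 and 261.6 ± 7.48 CPM (edgeR adjusted p = 0.895). The peptide-trimming group likewise had 0 of 9 called. Its ERAP1, which trims peptides to the length that fits the groove, had 77.2, 77.2 and 72.6 CPM in L1high and 95.3, 84.4 and 85.6 CPM in L1low libraries. These did not overlap, at a log2 fold change of 0.23 (SE 0.07) that did not pass (edgeR adjusted p = 0.0906). ERAP2 had 3.53 ± 0.332 and 3.44 ± 0.333 CPM. Of 20 class I-like genes, a list that includes NKG2D ligands, HFE and MR1, 14 had a row and none was called, with log2 fold changes from -0.36 to 0.65. With 7.95% of all genes called, the lack of calls in lists this short says little about these genes.

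Among the genes of interferon gamma and NF-kappaB signalling, 3 of 14 were called higher in L1low cells and none was called lower. Of all genes tested, 7.95% were called in either direction. Of the 14 log2 fold changes, 9 were above and 5 below 0. SOCS3, a feedback inhibitor of cytokine receptors, had 79.5, 72.8 and 85.1 CPM in L1high and 126.7, 129.9 and 131.5 CPM in L1low libraries. That is a log2 fold change of 0.71 (SE 0.07, edgeR adjusted p = 1.16e-04), and SOCS3 stayed called with any 1 library left out. The NF-kappaB subunits RELA and REL rose by 0.25 and 0.47 on the log2 scale (edgeR adjusted p = 0.0405 and 0.0331). With 1 library left out, RELA stayed called only without L1high replicate 3, and REL only without L1low replicate 3. The receptor and its kinase were not called, with log2 fold changes of -0.09 for IFNGR1 (edgeR adjusted p = 0.484) and 0.19 for JAK1 (edgeR adjusted p = 0.198).

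IRF1, which binds the ISRE of class I genes, had 19.9, 20.9 and 20.4 CPM in L1high and 22.8, 26.0 and 26.6 CPM in L1low libraries. The libraries did not overlap, and the log2 fold change of 0.30 (SE 0.10) missed the threshold (edgeR adjusted p = 0.0804). The RFX, NF-Y, CREB/ATF and CIITA group had 0 of 9 called, with log2 fold changes from -0.50 to 0.12. Silencers, which include the subunits of Polycomb repressive complex PRC2, had 0 of 6 called. With 7.95% of all genes called, the lack of calls in lists this short says little about these genes. In each of these lists 3 genes separated the libraries, against 28.8% of all genes tested.

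All 6 measured genes of surface turnover, whose products route class I molecules to lysosomes or autophagosomes, had positive log2 fold changes, with a median of 0.20. Over all genes tested, 51.5% of the log2 fold changes lay below 0 and 7.95% of the genes were called. Of the 6 turnover genes only NBR1, an autophagy cargo receptor, passed the test. It rose from 209.3 ± 4.54 to 243.7 ± 6.38 CPM (SD, n = 3), a log2 fold change of 0.22 (edgeR adjusted p = 0.0464), and no gene of this list was called with any 1 library left out. Over all pathway lists, including the stress genes of the sort, 95 genes had a row and 12 were called, 8 higher and 4 lower, against 7.95% of all genes tested. Leaving out 1 library gave between 3 (without L1low replicate 2) and 9 called genes of these lists: 4 without L1high replicate 1, 6 without L1high replicate 2 and 6 without L1low replicate 1. No list was tested as a set.

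**Figure D5:**
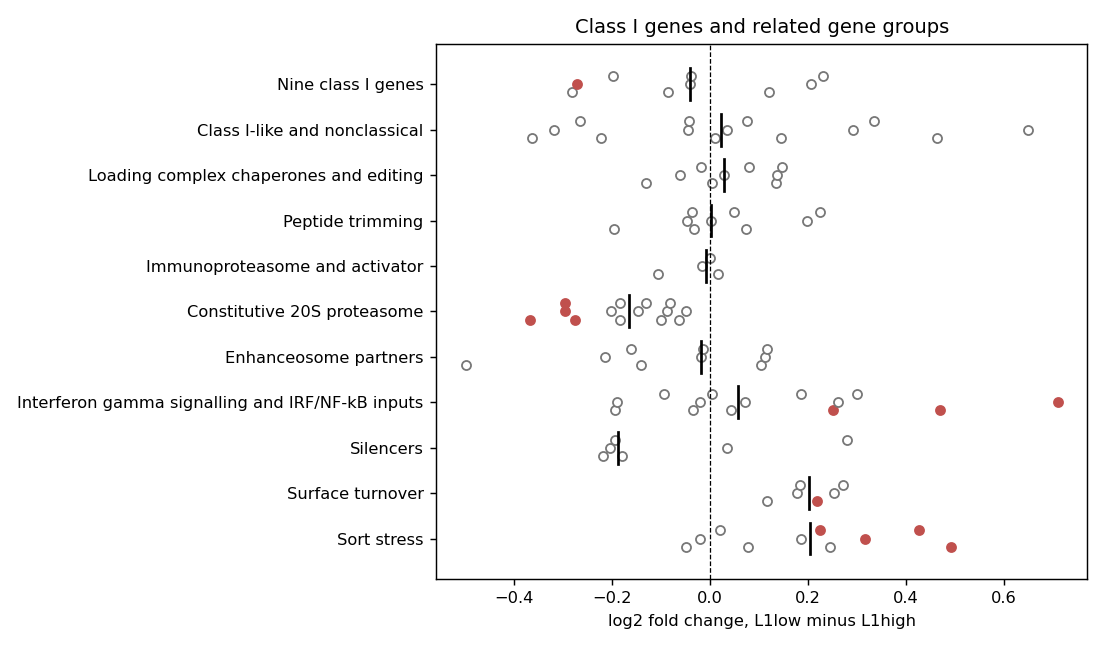
Log2 fold change, L1low minus L1high (horizontal axis), of each gene of each list (rows); filled red points passed an adjusted p of 0.05 and the vertical bar is the median of the list. The constitutive 20S proteasome lies wholly below 0 (median -0.16) and surface turnover wholly above it (median 0.20), while the immunoproteasome genes lie near 0.

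Of 10 genes that respond to dissociation and sorting, 4 rose in L1low cells and 6 were not called. Of all genes tested, 7.95% were called in either direction. Those that rose were FOS by 0.23, FOSB by 0.43, EGR1 by 0.32 and ATF3 by 0.49 on the log2 scale (edgeR adjusted p = 0.0362, 8.30e-04, 0.00907 and 3.78e-04). The list of 10 summed to between 8071 and 8623 CPM in L1high and between 9902 and 10560 CPM in L1low libraries. The number called was 2, 3 and 4 without L1high replicate 1, 2 and 3 and 4, 2 and 4 without L1low replicate 1, 2 and 3. Among the markers of other cell types, ITGAX fell from 13.8 ± 2.21 to 6.94 ± 0.719 CPM (edgeR adjusted p = 0.00165) and LUM rose from 82.9 ± 6.13 to 142.1 ± 11.3 CPM (edgeR adjusted p = 1.35e-04). Of the epithelial markers, KRT19 rose by 0.63 on the log2 scale (edgeR adjusted p = 1.36e-04) and EPCAM fell by 0.30 (edgeR adjusted p = 0.0496), the latter called without L1high replicate 3 and with no other single library left out. The part of these in the values of B2M and SOCS3 was not tested.

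The 9 members did not follow 1 course across the L1high libraries. In L1high replicate 2, HLA-B, HLA-C, HLA-F, TAP1 and NLRC5 had their lowest L1high value. B2M and TAPBP had their highest there, and HLA-E and TAP2 lay between. The mean of the 9 members' log2 CPM, each centred on its own mean, was 0.04, -0.09 and 0.11 in the L1high libraries. It was -0.02, -0.01 and -0.03 in the L1low libraries, so that the spread within L1high exceeded the distance between the populations. The genes whose pattern over the 6 libraries was most like this mean were RGS19, MROH8, PALD1, MPRIPP1 and SLC37A4, with Pearson correlations from 0.985 to 0.995 over 6 libraries. None of these was called between the populations, and the correlations are the highest of all genes searched and are given as a description.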

How the data were processed

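RNA was extracted from FACS-sorted L3.6pl cells and sequenced from stranded mRNA libraries, 3 per population. Per the labels and methods, the authors aligned trimmed reads to GRCh38 (GRCh38.p13 in the submitters' processing notes) with BWA and ran featureCounts on the genes of Ensembl release 94. The deposited values are raw read counts, and the strand and multi-mapping options and the versions are not given in the sources used here. Each deposited gene exceeded 1 CPM in at least 2 libraries, so lower genes are not analysed here.

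From these counts, L1low was compared with L1high over all 6 libraries in R 4.3.3 with edgeR 4.0.16 (TMM, filterByExpr, which removed 2 genes, quasi-likelihood test, Benjamini-Hochberg over all genes). The study's gene table leaves out L1high replicate 3 without a stated reason, which was an alternative, as were each other replicate left out, a replicate block, other scalings, filters, DESeq2 1.42.0 and edgeR's exact test. The standard error is the log2 fold change over the square root of F, and intervals use the t distribution. Log2 CPM used a prior count of 2 and RPKM the exon length of GENCODE 44, which matched 19344 of 19469 identifiers and gave gene coordinates and the 50-base comparison. The closest library pair, L1high 1 and 3, differed beyond sampling noise (chi-square per degree of freedom 3.66). The fit was tested on simulated data.

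Named genes were the 9 members, L1CAM, the genes of the lists called, pathway genes named by the rule (of which 1 is not reported here), and the 5 genes most correlated with the members; others are said to be chosen after their values were seen. Members and lists were chosen from general knowledge with earlier results of these data known. Counts per list with each library left out were added after the data were seen. Not every class I heavy chain or reference gene is reported here.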

Additional observations from a re-analysis of the deposited data

How the results depend on the processing

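For the 14 results, 196 values came from other settings, and 174 of these left sign and call as they were or stayed within 1.5 times a count. Leaving out 1 library in turn gave between 627 and 1473 called genes, between 0 and 1 called members and between 3 and 9 called genes of the pathway lists. In the same fits the log2 fold change of B2M ran from -0.32 to -0.19, and B2M was called in 9 of 14 alternatives, with edgeR and DESeq2 adjusted p-values from 0.0206 to 0.195. Members that were not called changed sign with 1 library left out. HLA-C ran from -0.26 to 0.10 (0.10 and 0.04 when L1high replicate 3 or L1low replicate 2 was dropped), HLA-F from -0.16 to 0.11 (0.11 and 0.05 when replicate 3 of L1high or of L1low was dropped) and HLA-B from -0.11 to 0.0678 (0.0678 without L1low replicate 1). The cause was not tested. Without L1high replicate 3 the median of the 9 members was 0.10. HLA-E stayed between 0.18 and 0.23, TAPBP between 0.15 and 0.32, TAP2 between -0.34 and -0.24, TAP1 between -0.35 and -0.08 and NLRC5 between 0.05 and 0.16, none called in any setting, and L1CAM was called in all 14. With the replicate number as a block, 2363 genes were called, 1220 higher and 1143 lower, and 1547 of the 1548 genes stayed called, with B2M at -0.27 and an edgeR adjusted p of 0.0206. The numbers were not taken as pairs, since the deviations of same-numbered libraries correlated at 0.113, 0.0987 and 0.290 and L1high replicate 2 correlated best with L1low replicate 1. edgeR's exact test called 2075 genes, and library-total scaling called 822 higher and 726 lower. HLA-F, TAP1 and HLA-C had 49 to 133 counts per library and standard errors of 0.20, 0.19 and 0.20 on the log2 scale.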

Other observations

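B2M is often used as a reference gene, so its level was set against other genes used in that way. This list of 13 was chosen after the values were seen. The ratio of B2M to GAPDH in CPM was 0.102, 0.124 and 0.0939 in the L1high and 0.0814, 0.0793 and 0.0800 in the L1low libraries, which did not overlap. GAPDH itself had 4729 ± 226.9 CPM in L1high and 5198 ± 66.4 CPM in L1low cells (log2 fold change 0.14, edgeR adjusted p = 0.164). Among the 13 genes, ACTB was higher in L1low cells by 0.27 on the log2 scale (edgeR adjusted p = 0.0110), and TFRC was lower by a log2 fold change of -0.40 (edgeR adjusted p = 0.00497). TFRC stayed called with any 1 library left out. ACTB lost the call when L1high replicate 1 or L1low replicate 2 was left out.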
